A study of Mus musculus with 7 samples.

Results

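The cycling cells described here were 238 barcodes of the WT DN3a library, the sorted thymocytes that stand before the first T-cell receptor checkpoint. A barcode stands for the droplet of a cell, and a UMI for a counted mRNA molecule. The DN3a library held 10078 barcodes, of which 6259 had at least 1000 detected genes, at most 10% mitochondrial UMIs and at most 1 UMI of the B cell genes Cd79a, Cd79b and Ms4a1 together. Cycling barcodes were those with at least 4 UMIs summed over Mki67, Top2a, Rrm2 and Tyms, which made up 3.80% of the kept barcodes (exact Clopper-Pearson 95% interval 3.34 to 4.31%). They were compared with the 5572 kept barcodes that had at most 1 such UMI, called the comparison barcodes below, and the 449 barcodes with 2 to 3 UMIs were left between the groups. The whole series held 90016 barcodes in 7 libraries. The gate left out cells with CD71 on their surface, and CD71 marks proliferating DN3 cells, so the share is that of a sorted fraction and not of all DN3 thymocytes.

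The thymocytes came from C57BL/6 wild-type (WT) mice of 6 to 8 weeks, of both sexes and pooled, whose thymi had been depleted of CD4+ and CD8+ cells with beads. DN3a cells were sorted as CD44-, CD25+ and CD71-, without NK1.1+ cells and without doublets by light scatter. The libraries set beside it were CD71+ WT DN3b cells without a surface γδ TCR (DN3b γδ−), WT DN3b cells with one (DN3b γδ+), for which no CD71 gate is stated, and DN3 γδ− cells of C57BL/6 Lat-/-TCRd-H2BEGFP mice (Lat-KO, age not given in the sources used here, thymi not depleted), which lack the adaptor LAT in every cell, carry a reporter at Trdc and were not split by CD71 as the WT cells were. To each library 500 B cells from spleen had been added, and it held the cells of 1 group, so that there is no replicate. No test was therefore made, and every interval covers counting error only.

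DN3 thymocytes cut and join the gene segments of the Tcrb, Tcrg and Tcrd loci with the RAG1 and RAG2 recombinase, under Notch signals that sustain Il2ra (CD25), Ptcra and Hes1. The DN3a stage is mostly quiescent. A cell whose TCRβ chain pairs with the pre-TCRα chain signals through CD3, Lck, Zap70 and LAT, switches off recombination and enters a burst of divisions as a DN3b cell, and a γδ TCR can pass cells through the same checkpoint. In a dividing cell, E2F factors switch on the enzymes of DNA replication at the entry to S phase, and the DREAM and MMB complexes, which bind cell cycle homology (CHR) elements, time the genes of G2 and mitosis.

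The 4 genes of the rule are listed as a description, since they chose the members. A UMI of Top2a, a topoisomerase that untangles replicated DNA, was found in 225 of 238 members, a UMI of the thymidylate synthase Tyms in 208, a UMI of the ribonucleotide reductase subunit Rrm2 in 171 and a UMI of Mki67, the gene of the Ki-67 antigen, in 79. Their summed levels in CPM, the UMIs of a gene per 1000000 UMIs of the group, were 338 for Top2a, 212 for Tyms, 138 for Rrm2 and 118 for Mki67, against 15.7, 10.8, 1.86 and 1.01 CPM in comparison barcodes. The median member held 7 UMIs of the rule genes and the highest 71. Most members lay near the threshold: 126 had 4 to 7 UMIs, 52 had 8 to 15 and 60 had at least 16. Just inside it, the barcodes with 4 to 7 UMIs held Mki67 at 7.99 CPM and Rrm2 at 59.1 CPM, and just outside, those with 2 to 3 UMIs held Mki67 at 8.45 CPM and Rrm2 at 22.5 CPM.

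The rule counts UMIs, and depth moved with it. Members had a median of 15828 UMIs (5th to 95th percentile 9650 to 24901) and comparison barcodes 7188 (4725 to 12513), a ratio of 2.20, with 3633 against 2330 detected genes and 5.19 against 6.997% mitochondrial UMIs. The 99th percentile of comparison barcodes was 16669 UMIs, and 102 members lay above it. When the kept barcodes with at least 4000 UMIs were thinned to 4000 before the rule was applied, 74 of 6109, or 1.21%, passed. The 150 kept barcodes with fewer UMIs were left out of this share. Among barcodes with 5000 to 15000 UMIs, 103 members with a median of 13086 and 5059 comparison barcodes with a median of 7300 UMIs, the S phase list had a median log2 ratio of 2.65 and the 5 DN3a genes one of −1.24, near the values over all barcodes given below. The depth of these 2 groups still differed, and the part of larger cells or of droplets with more than 1 cell was not tested. The totals of the 7 libraries ran from 49407750 to 375688164 UMIs, with 66006041 in DN3a. Of the members, 7 carried a barcode sequence that was also in another library (2.94%, against 2.23% of all DN3a barcodes). Without them, 476 genes were called higher and 344 lower. Medians recomputed without them were those of the S phase, G2/M, chromatin, ribosome biogenesis, nucleotide synthesis, quiescence, DN3a, selection and γδ TCR-induced lists. Each stayed within the median of the limits of its single genes. Other lists were not recomputed.

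E2F sites are known from promoters of replication genes, and CHR and CCAAT elements from those of mitosis genes. In the tables of RefSeq promoters (mouse GRCm38.p6, from 250 bases before to 50 after each start), 30 of the 43 S phase genes and 42 of the 48 G2/M genes of the lists used here were matched by symbol. The E2F letters TTTGGCGC or TTTCCCGC, read on both strands, were in 9 of the 30 S phase genes and in 2.38% of the G2/M genes, against 1.798% of all 27025 genes. The CHR letters TTTGAA were in 29 of the 42 G2/M genes (69.0%) and in 10.0% of the S phase genes, against 20.2% of all genes. CCAAT boxes, CCAAT on either strand, were in 76.2, 56.7 and 41.1%. Another background is the 4235 genes with a promoter and a mean of at least 20 CPM in the 2 groups. Of these, 4.70% held the E2F letters, 14.4% the CHR letters and 42.9% CCAAT. The letters of no motif lie within those of another. These matches describe the letters and are not binding sites that were measured. Stretches of 150 bases that end just before the start are shown for 2 genes of each list, with every match on either strand in capitals, because the lists behaved differently in the cycling DN3a cells. Genes were taken from the top of each list by ratio. They were kept only if their stretch held the E2F letters (S phase) or the CHR letters (G2/M). A match in each gene shown was therefore set by the choice.
Cdc6, chr11:98908001-98908150, plus strand: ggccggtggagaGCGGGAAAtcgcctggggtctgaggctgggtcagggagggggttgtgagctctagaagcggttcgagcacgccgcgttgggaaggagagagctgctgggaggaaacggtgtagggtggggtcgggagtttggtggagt
Hells, chr19:38930840-38930989, plus strand: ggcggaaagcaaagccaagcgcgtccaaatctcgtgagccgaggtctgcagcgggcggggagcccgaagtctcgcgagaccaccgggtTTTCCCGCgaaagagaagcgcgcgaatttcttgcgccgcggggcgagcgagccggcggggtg
Kif2c, chr4:117178773-117178922, minus strand: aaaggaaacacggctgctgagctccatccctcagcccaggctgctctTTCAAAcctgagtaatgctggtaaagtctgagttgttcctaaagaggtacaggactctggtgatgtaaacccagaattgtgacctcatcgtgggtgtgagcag
Ube2c, chr2:164769779-164769928, plus strand: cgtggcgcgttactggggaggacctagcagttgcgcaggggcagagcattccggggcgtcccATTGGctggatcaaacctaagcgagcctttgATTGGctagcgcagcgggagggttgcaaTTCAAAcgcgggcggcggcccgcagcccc
Cdc6, which loads the replicative helicase, and Hells, a chromatin remodeller, each hold an E2F match. Kif2c, a kinesin that removes wrongly attached microtubules, holds the CHR letters, and Ube2c, the ubiquitin-conjugating enzyme of the anaphase-promoting complex, holds them together with 2 CCAAT matches.

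Replication genes were higher in the cycling barcodes almost throughout. A gene entered the counts when the mean of its levels in the 2 groups was at least 20 CPM, which 5255 genes reached, and it was called when its levels differed at least 2-fold. Of these, 472 were at least 2-fold higher (8.98%) and 331 at least 2-fold lower (6.3%), around a median log2 ratio over all genes of 0.00. A gene that is near 0 in the comparison barcodes reached the minimum only because it was high in members, so these counts describe the groups and support no further statement. Of 40 S phase and DNA replication genes that reached it, of 43 listed, 39 were called higher and none lower, with a median log2 ratio of 2.70. The exception, Uhrf1, a reader of hemimethylated DNA, had 301 against 195 CPM (log2 ratio 0.63, 95% interval 0.54 to 0.71).

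Among the replication genes, Mcm10, which helps to activate the helicase, had 41.2 CPM in cycling and 0.68 CPM in comparison barcodes (log2 ratio 5.92, interval 5.34 to 6.54). The clamp loader subunit Dscc1 had 54.1 against 1.72 CPM (4.98, 4.59 to 5.38) and thymidine kinase Tk1 69.7 against 2.80 CPM (4.64, 4.32 to 4.96). Abundant members of the list differed less: the sliding clamp Pcna had 544 against 105 CPM (2.37, 2.29 to 2.44). Among genes outside the rule with a mean of at least 20 CPM and at least 10 UMIs in each group, the highest ratio was that of the mitotic kinase gene Pbk, at 59.6 against 0.33 CPM (230 and 14 UMIs, log2 ratio 7.50), followed by Pclaf, which binds PCNA, at 302 against 2.94 CPM (6.68), and the survivin gene Birc5, at 84.7 against 0.92 CPM (6.53). Of the 15 genes with the highest ratios, Cdc45, Cdc6, Exo1 and Cenpm lay between log2 ratios of 4.24 and 4.54.

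Genes of G2 and mitosis were low in most of the cycling DN3a barcodes. Only 18 of 48 listed genes reached 20 CPM, of which 13 were called higher and none lower, with a median log2 ratio of 2.24. The highest of the 18 were Birc5, Ube2c at 66.6 against 1.48 CPM (log2 ratio 5.49, 5.09 to 5.91), Nusap1, a spindle protein, at 52.8 against 1.46 CPM (5.18, 4.76 to 5.61) and the mitotic kinase Cdk1 at 83.4 against 2.47 CPM (5.08, 4.75 to 5.41). The condensin subunit Smc4 had 465 against 446 CPM and the centromere chaperone Hjurp 93.8 against 89.9 CPM, log2 ratios of 0.06 whose intervals hold 0. The list summed to 2159 CPM in members and 872 CPM in comparison barcodes, so Smc4 and Hjurp made up more of the latter sum. Cyclin B1 (Ccnb1) had 16.3 CPM, polo-like kinase Plk1 9.32 CPM and the phosphatase Cdc25b 4.66 CPM in cycling barcodes, all under the minimum. Over all 48 genes with a ratio the median was 3.29, since those near 0 in comparison barcodes have high ratios.

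Their levels were highest in the 60 members with at least 16 UMIs of the rule genes. Birc5 had 0.92, 9.11, 5.86, 22.6 and 270 CPM in the barcodes with 0 to 1, 2 to 3, 4 to 7, 8 to 15 and at least 16 UMIs of the rule genes. Ube2c had 1.48, 4.0, 8.52, 13.5 and 209 CPM, and the kinetochore gene Cenpf 2.07, 6.22, 4.79, 4.52 and 105 CPM over the same groups. Members with 4 to 7 UMIs therefore held these mitotic genes at a few CPM, near the barcodes just outside the rule. Replication genes had another course: the uracil glycosylase Ung had 19.8, 83.4, 199, 245 and 152 CPM, and the helicase subunit Mcm5 26.6, 86.9, 188, 241 and 219 CPM. Between the members with at least 16 and those with 4 to 7 UMIs, the log2 ratio was 5.52 for Birc5 (4.66 to 6.54), 4.61 for Ube2c (3.88 to 5.45), 0.22 for Mcm5 (−0.02 to 0.46) and −0.39 for Ung (−0.66 to −0.12). Without the 60 members, 8 of the 18 G2/M genes still reached 20 CPM (median log2 ratio 0.35), so that this median is over another set of genes. Over the same 18 genes the median went from 2.24 to 1.47, with 10 still at least 2-fold higher, and over the 47 listed genes with a ratio in both it went from 3.26 to 1.64. For the 40 S phase genes it went from 2.70 to 2.50. Since Mki67 and Top2a are themselves mitotic genes in part and belong to the rule, the split by their UMIs favours such cells and is a description.

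**Figure D1:**
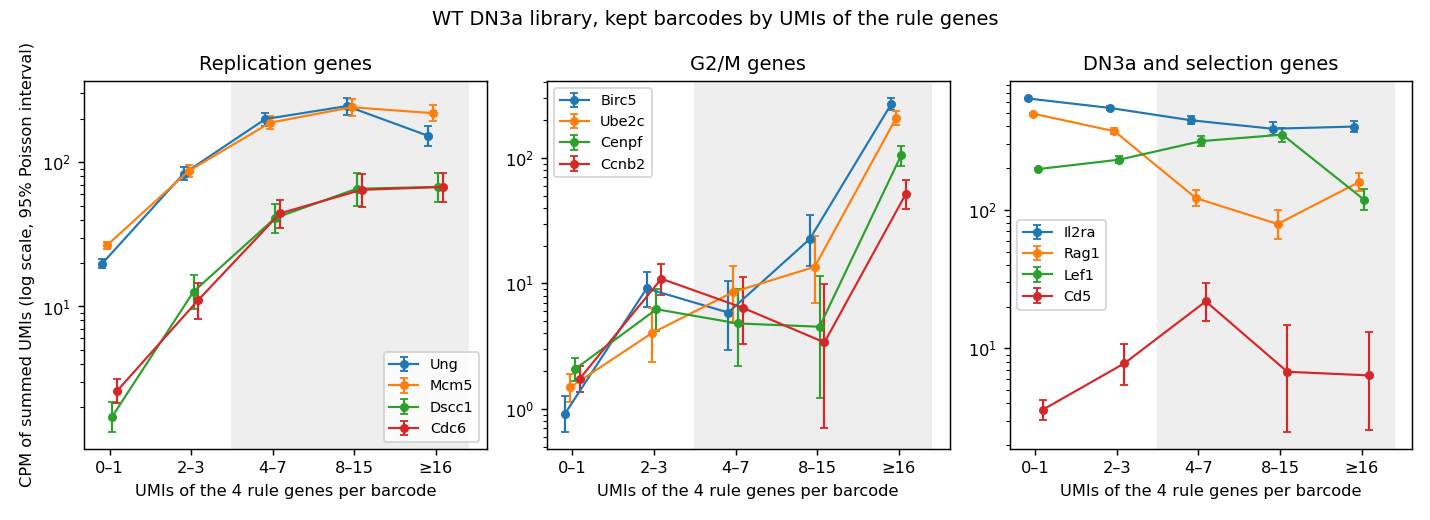
Levels in CPM of summed UMIs (log axis, bars are exact 95% Poisson intervals) in WT DN3a barcodes grouped by their UMIs of the 4 rule genes (horizontal axis), for replication genes, G2/M genes and DN3a and selection genes; grey marks the members. Ung and Mcm5 were highest with 8 to 15 UMIs, while Birc5, Ube2c, Cenpf and Ccnb2 were highest with at least 16 UMIs.

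The balance of the phases was read again in barcodes thinned to 4000 UMIs each, which left 237 members and left out 1. A thinned member held a median of 27 UMIs of the S phase list (quartiles 22 and 33) and 5 of the G2/M list (3 and 9), and a comparison barcode 5 and 3. The G2/M UMIs include those of Smc4 and Hjurp, whose levels were alike in the groups, so not all of them tell phases apart. Some comparison barcodes lay in the S phase range of members, with up to 34 UMIs, so that group is not free of replicating cells. G2/M UMIs outnumbered S phase UMIs in 17 members, 7.17% (4.23 to 11.2%). Among comparison barcodes, with few UMIs of either list, the share was 26.2% in DN3a and 20.4% in DN3b γδ−. It was 19.9% in comparison barcodes of DN3b γδ+ and 27.9% in those of Lat-KO. The share therefore does not by itself count cells in G2 or mitosis. In cycling barcodes of DN3b γδ−, chosen by the same rule, the S phase median was 28 and the G2/M median 18, and 34.2% (33.5 to 34.9%) had more G2/M than S phase UMIs. In DN3b γδ+ the medians were 28 and 15 and the share 26.8%, and in Lat-KO DN3 γδ− 28 and 11 with a share of 29.5% (24.9 to 34.5%). The S phase medians of the 4 libraries thus lay within 1 UMI of each other, and the G2/M median and the share were lowest in DN3a. Both varied with the UMIs of the rule genes: the thinned G2/M median was 4 in the 125 members with 4 to 7 UMIs, 5 in the 52 with 8 to 15 and 14 in the 60 with at least 16, and 7, 1 and 9 of these had more G2/M than S phase UMIs. The members with at least 16 UMIs were 25.2% of the cycling barcodes in DN3a, against 72.0% in DN3b γδ−, 61.2% in DN3b γδ+ and 50.6% in Lat-KO. With 1 library per group, the order of the libraries was not tested, and the intervals cover the counting of barcodes within a library. B cell barcodes of the DN3b γδ− library held Pbk, a mitotic gene outside both lists, at 77.0 CPM, and those of DN3a held none. The part of free RNA in the scores was not tested.

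**Figure D2:**
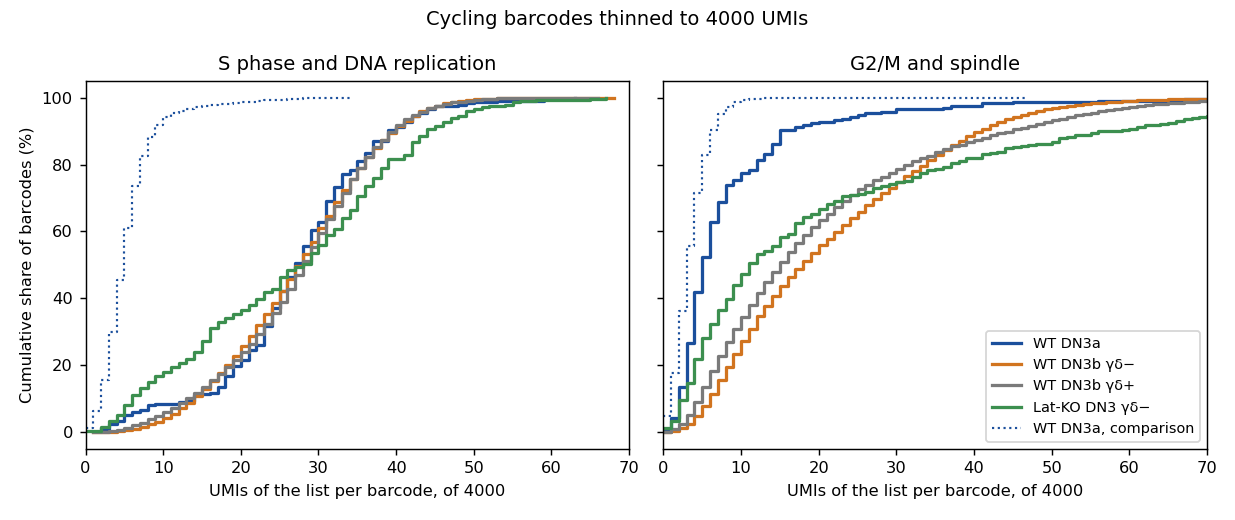
Cumulative share of cycling barcodes (per cent) against the UMIs of the S phase list (left) and of the G2/M list (right) per barcode thinned to 4000 UMIs, for 4 libraries, with comparison barcodes of WT DN3a dotted; the axes end at 70 UMIs. The S phase curves meet near a median of 27 to 28 UMIs, and the G2/M curve of DN3a, with a median of 5, lies left of those of the other libraries.

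Histone genes were mixed. Of 10 replication-dependent histone genes that reached 20 CPM, 2 were called higher and 2 lower (median log2 ratio 0.57). The shares over all genes were 8.98 and 6.3%. The linker histone Hist1h1b had 116 against 41.6 CPM (1.48) and Hist1h2ae 103 against 47.3 CPM (1.13), and without the 60 members of at least 16 UMIs their ratios were −0.45 and −1.15. Hist1h2ae had 47.3, 39.6, 15.98, 32.7 and 310 CPM over the 5 groups of rule gene UMIs. Hist1h2bc, whose mRNA is also made outside S phase in polyadenylated form, had 11.7 against 49.0 CPM (−2.07), and Hist1h1c 36.5 against 97.8 CPM (−1.42). Replication-dependent histone mRNAs lack a poly(A) tail and are caught poorly by 3′ oligo(dT) libraries. Chromatin and cytoskeleton genes of dividing cells were called higher in 17 of 19 cases (median 1.75), led by the tubulin Tuba1b at 797 against 96.5 CPM (3.05) and the histone variant H2afz at 2730 against 754 CPM (1.86).

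The G1 machinery differed unevenly. Of 11 cyclins, kinases and inhibitors, 3 were called higher and 2 lower, with a median log2 ratio of 0.25. Beside them, 8.98% of all genes were called higher and 6.3% lower. The S phase kinase Cdk2 had 31.1 against 9.04 CPM (1.78) and the activator E2f2 37.6 against 9.88 CPM (1.93). The inhibitors p21 (Cdkn1a), at 29.8 against 94.5 CPM (−1.67, −1.95 to −1.40), and p27 (Cdkn1b), at 46.4 against 120 CPM (−1.37, −1.60 to −1.16), were the genes called lower. The D cyclins Ccnd2 (237 against 313 CPM) and Ccnd3 (155 against 130 CPM) and Cdk6 (645 against 934 CPM) differed by less than 2-fold.

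Growth genes were higher in the same barcodes, in which 8.98% of all genes that reached the minimum were called higher and 6.3% lower. Of 23 genes of ribosome biogenesis, 14 were called higher and none lower (median log2 ratio 1.05), among them nucleolin (Ncl) at 1867 against 687 CPM (1.44), the spermidine synthase Srm at 235 against 65.9 CPM (1.84) and the nucleolar protein Nolc1 at 233 against 75.1 CPM (1.64). Of 20 genes of nucleotide synthesis, 18 were called higher (median 1.44). They were led by the folate enzymes Shmt1, at 88.6 against 15.4 CPM (2.52), and Mthfd2, at 76.1 against 16.1 CPM (2.24), and by Dctpp1, which removes damaged dCTP, at 484 against 118 CPM (2.04). Glycolysis genes were called higher in 4 of 11 cases (median 0.92), with lactate dehydrogenase Ldha at 600 against 194 CPM (1.63). Sterol and fatty acid genes were called higher in 3 of 14 (median 0.46), with the fatty acid synthase Fasn at 69.1 against 29.96 CPM (1.21). Homologous recombination genes that reached the minimum, 4 of 16, were all called higher (median 1.70), and over all 16 the median was 1.91.

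Quiescence genes were lower as a share of UMIs. Members were deeper, so their UMIs per barcode need not be fewer. Of 17 genes of the quiescence and FoxO list, 10 were called lower and none higher, with a median log2 ratio of −1.11. That list also held the AP-1 genes Jun, Fos and Junb, so it was not of quiescence genes alone. The antiproliferative gene Btg1 had 110 against 374 CPM (−1.77, −1.91 to −1.63), the PI3K inhibitor Pik3ip1 74.1 against 181 CPM (−1.29), the glucose uptake inhibitor Txnip 54.1 against 146 CPM (−1.43) and the AP-1 factor Junb 458 against 1140 CPM (−1.32). Among the 15 genes with the lowest ratios were Mxd4, a MAX partner that opposes MYC, at 27.2 against 144 CPM (−2.41), Ypel3, a growth suppressor of the quiescence list, at 25.6 against 136 CPM (−2.40), the p53 target Trp53inp1 at 39.9 against 171 CPM (−2.10) and the imprinted H19 at 18.6 against 79.3 CPM (−2.09). Within the same limits of level and UMIs, the lowest was the non-coding gene Gm12503, at 5.96 against 52.6 CPM (−3.14). Of 6 p53 target genes, 1 was called higher and 2 lower, and of 7 survival and death genes 1 was called lower, Mcl1 at 133 against 275 CPM (−1.04). Over all genes, 8.98% were called higher and 6.3% lower. The shift of 0.06 from TMM factors, given below, takes Mcl1 under 2-fold.

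**Figure D3:**
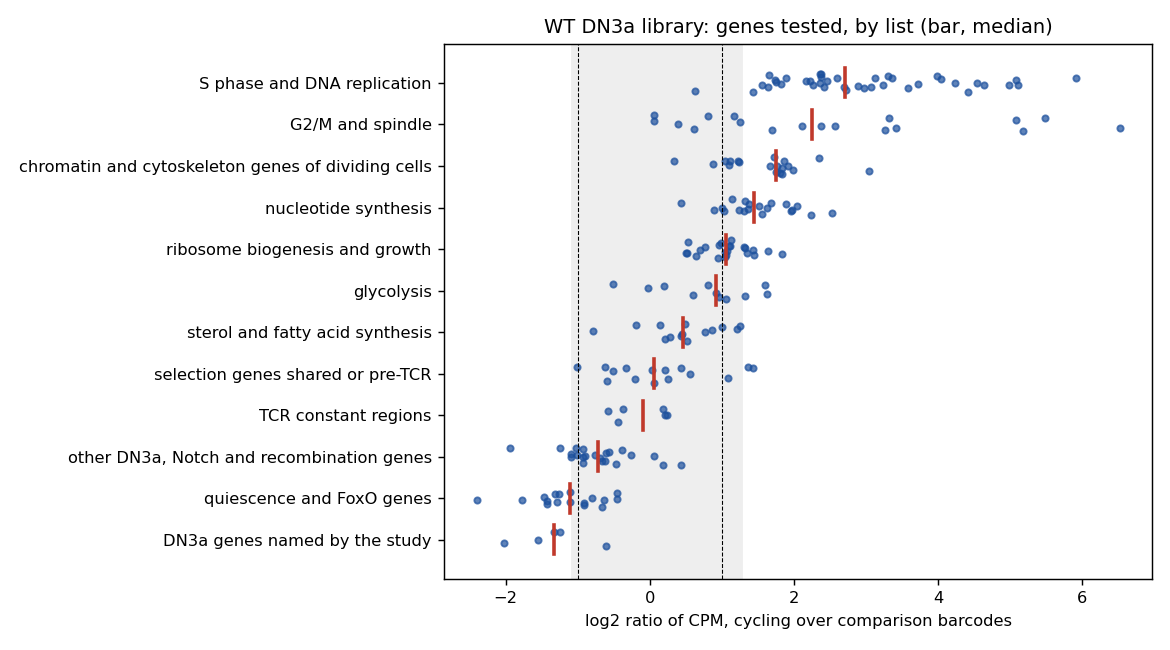
Log2 ratio of CPM, cycling over comparison barcodes of WT DN3a, for the genes of each list with a mean of at least 20 CPM (points) and their median (bar); dashed lines mark 2-fold and grey the 5th to 95th percentile of all 5255 genes, −1.07 to 1.27. The S phase median was 2.70 and that of the 5 DN3a genes −1.33.

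The genes that define DN3a cells were present and lower as a share of UMIs. Members were deeper, so a lower CPM need not mean fewer UMIs per barcode. Unthinned, a UMI of Il2ra was found in 91.6% of members and 89.5% of comparison barcodes, and one of Hes1 in 85.7 and 82.1%. Fewer members held Ptcra (70.2 against 86.5%), Rag1 (47.9 against 83.1%) and Notch3 (43.7 against 64.3%). The study chose Il2ra, Ptcra, Rag1, Notch3 and Hes1 as DN3a genes on these libraries, so their direction is not independent evidence. All 5 had a lower CPM in cycling than in comparison barcodes and 4 were called lower, with a median log2 ratio of −1.33. Rag1, the recombinase subunit, had 122 against 495 CPM (−2.02, −2.15 to −1.89), and its partner Rag2 15.8 against 60.3 CPM (−1.93, −2.32 to −1.57). Notch3 had 54.6 against 160 CPM (−1.55), the Notch target Hes1 236 against 595 CPM (−1.33) and Ptcra, the pre-TCRα chain, 186 against 442 CPM (−1.25). Il2ra, whose product CD25 was part of the gate, had 417 against 637 CPM (−0.61, −0.68 to −0.54) and was not called.

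By barcode, 218 of 238 members held an Il2ra UMI and 5 held none of the 5 DN3a genes. After thinning to 4000 UMIs, a UMI of Il2ra was found in 72.2% of members (66.0 to 77.8%), 79.9% of comparison barcodes and 26.5% of B cell barcodes (14.9 to 41.1%), and unthinned the member share was 91.6%. A UMI of Rag1 was found in 28.7% of members (23.0 to 34.9%), 73.3% of comparison barcodes and 20.4% of B cell barcodes, with 47.9% of members unthinned. B cells should lack both mRNAs, so the level in their barcodes was taken as background, and its source was not tested. Only 49 of 116 B cell barcodes were deep enough to be thinned, and the 116 had a median of 3816 UMIs. For Rag1, the interval of the members reaches into that of the B cell barcodes, so the share was not separable from that background at this depth. In CPM of summed UMIs, B cell barcodes of the DN3a library held Rag1 at 76.8, Ptcra at 76.8, Il2ra at 161, Hes1 at 197 and Notch3 at 28.6, all under the cycling cells, with Hes1 (236 CPM) the nearest. Rag1 by group of rule gene UMIs ran 495, 369, 121, 79.0 and 159 CPM, and Ptcra 442, 322, 174, 117 and 262 CPM, lowest in the members with 8 to 15 UMIs. Il2ra ran 637, 544, 443, 385 and 399 CPM.

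Other genes of the DN3 programme were lower in CPM by less. Of 22 Notch, recombination and T lineage genes that reached the minimum, 6 were called lower and none higher (median log2 ratio −0.72). Among all genes, 6.3% were called lower and 8.98% higher. The polymerase Dntt, which adds bases at the joins, had 1033 against 1581 CPM (−0.61), the CD3 chain Cd3d 889 against 1795 CPM (−1.01), Runx1 174 against 370 CPM (−1.09), Bcl11b 426 against 808 CPM (−0.92) and the kinase Lck 488 against 913 CPM (−0.90). The T lineage factor Tcf7 had 497 against 439 CPM (0.18, 0.11 to 0.25) and Gata3 104 against 100 CPM, with an interval that holds 0 (0.05, −0.10 to 0.20). Lef1, the close relative of Tcf7, lay above by less than 2-fold, at 266 against 197 CPM (0.43, 0.34 to 0.53), and its course had a peak: 197, 230, 313, 349 and 118 CPM over the groups of rule gene UMIs. Between the members with at least 16 and those with 4 to 7 UMIs, Lef1 differed by a log2 ratio of −1.40 (−1.69 to −1.13).

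Selection genes, those known to follow a pre-TCR or TCR signal, were mostly not called. Of 26 genes, 15 reached the minimum, of which 3 were called higher and 1 lower, around a median log2 ratio of 0.06. The shares among all genes were 8.98% higher and 6.3% lower. A single lower gene of 15 is near the latter share, so it shows no downward movement of the list. The amino acid transporter chain Slc7a5 had 44.0 against 16.4 CPM (1.43, 1.18 to 1.67), Id3, the inhibitor of E proteins that a pre-TCR signal induces, 80.5 against 31.2 CPM (1.37, 1.19 to 1.55) and the kinase Zap70 27.2 against 12.8 CPM (1.08, 0.77 to 1.39). Cd69, an early activation marker, was the gene called lower, at 40.7 against 82.0 CPM (−1.01). The shift of 0.06 from TMM factors, given below, takes Cd69 under 2-fold. Below the 2-fold limit lay Cd28 (64.2 against 43.8 CPM, 0.55), Myc (113 against 95.3 CPM, 0.25), Cd27 (134 against 207 CPM, −0.63) and Tfrc, the gene of the gating antigen CD71 (40.4 against 30.03 CPM, 0.43, 0.18 to 0.67). Cd8b1 (8 UMIs), Cd8a (0 UMIs), Cd4 (1 UMI) and Trac (6 UMIs) were near absent in the summed members. For Id3, B cell barcodes of this library held 145 CPM, above both groups. Without barcodes that held a UMI of Cd79a, Cd79b or Ms4a1, the log2 ratio of Id3 was 1.31.

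Several TCR-induced genes lay under the minimum and had higher ratios. Cd5, whose level tracks TCR signal strength, had 13.99 against 3.60 CPM (54 and 153 UMIs, log2 ratio 1.96, 1.48 to 2.41). The inhibitory receptor gene Pdcd1 had 23.3 against 3.34 CPM (2.80, 2.40 to 3.19), the CD5 relative Cd6 17.4 against 5.72 CPM (1.60, 1.19 to 1.997) and the ERK-driven factor Etv5 6.47 against 0.59 CPM (25 UMIs in each, 3.46). The orphan receptor Nr4a1 had 19.4 against 10.9 CPM (0.83) and Egr1 16.8 against 25.5 CPM (−0.60). Not all genes under the minimum were higher: Cpa3 had 4.66 against 7.86 CPM (−0.75). B cell barcodes held no UMI of Cd5 or Pdcd1. The study chose a γδ TCR-induced signature on these libraries, so it is not independent evidence, and the 14 genes used here are those its text names and not the whole signature. Of these 14 genes, 4 reached the minimum, Sesn3 (−1.11), Clec2d (−1.07), Cd52 (−0.92) and Cd53 (−0.61), of which 2, Sesn3 and Clec2d, were called lower (median of the 4, −0.996). All 4 were higher in B cell barcodes, from 94.7 CPM for Sesn3 and 209 for Clec2d to 331 for Cd53 and 2974 for Cd52. The part of B cell RNA in their ratios was not tested, since the rule limited B cell UMIs per barcode and members were deeper. Without barcodes that held a UMI of Cd79a, Cd79b or Ms4a1, the ratios were −1.04 for Sesn3, −0.94 for Clec2d, −0.72 for Cd52 and −0.66 for Cd53, so that Clec2d was no longer 2-fold lower. Over all 14 genes the median was 0.30, so its direction depends on the minimum.

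At these levels a member that expressed a gene could hold no UMI of it, so the counts of members with a UMI do not give the number that expressed it. A Cd5 UMI was found in 32 members and a Pdcd1 UMI in 64, with both in 14, and a Cd6 UMI in 46. Of the 3 genes, 138 members held none, 67 held 1, 24 held 2 and 9 held all 3. Etv5 came from 15 members, and the 5 members with the most UMIs gave 15 of its 25 UMIs. Unthinned, Cd5 was found in 13.4% of members. At 4000 UMIs per barcode, it was found in 5.06% of members (2.64 to 8.68%), 1.03% of comparison barcodes (0.78 to 1.34%) and 0 of 49 B cell barcodes. Those 49 are too few to place the background under the share of members. At the same depth, Pdcd1 was found in 10.5% of members (6.94 to 15.2%) and 0.85% of comparison barcodes (0.62 to 1.13%). Over the groups of rule gene UMIs, Cd5 and Zap70 were highest at 4 to 7 and Etv5 at 8 to 15 UMIs: Cd5 had 3.60, 7.78, 21.8, 6.77 and 6.38 CPM, Zap70 12.8, 18.9, 36.7, 27.1 and 10.9 CPM and Etv5 0.59, 3.11, 7.46, 11.3 and 0.91 CPM. From the members with 4 to 7 to those with at least 16 UMIs, the log2 ratio was −1.78 for Cd5 (−3.18 to −0.60), −1.75 for Zap70 (−2.77 to −0.85) and −0.41 for Pdcd1, whose interval (−1.20 to 0.34) holds 0.

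The constant regions of the antigen receptor loci differed by less than 2-fold. None of 6 constant region genes that reached the minimum was called. Trbc1 had 1560 against 1348 CPM (0.21) and Trbc2 2346 against 1997 CPM (0.23), while Tcrg-C1 had 323 against 484 CPM (−0.58). UMIs of all 35 Trbv segments together made 17.9 against 12.9 CPM (0.47, 0.09 to 0.83), and those of 7 Trgv segments 197 against 269 CPM (−0.45, −0.56 to −0.35). The 128 Trav segments together made 4.92 against 9.18 CPM (−0.90, −1.65 to −0.24) and the 6 Trdv segments 4.92 against 6.87 CPM (−0.48, −1.23 to 0.19). A 3′ library reads few V segments, so no rearrangement can be read from these sums.

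Set beside other cycling thymocytes, those of DN3a held more of the DN3a genes than DN3b and less of G2/M. In DN3b γδ−, 16209 of 17959 kept barcodes passed the same rule (90.3%), in DN3b γδ+ 9743 of 11663 (83.5%) and in Lat-KO DN3 γδ− 362 of 6298 (5.75%). The CD71 gate, the stage and the library cannot be told apart in these values. For Lat-KO, the genotype, the reporter allele and the missing depletion cannot be told apart from them either. Tfrc had 72.8 CPM in cycling DN3b γδ−, 73.4 in DN3b γδ+, 36.2 in Lat-KO and 40.4 in DN3a barcodes. At least 16 UMIs of the rule genes were found in 25.2% of cycling DN3a barcodes, 72.0% of DN3b γδ−, 61.2% of DN3b γδ+ and 50.6% of Lat-KO. Between cycling barcodes of DN3a and DN3b γδ−, 5046 genes were compared, of which 135 were at least 2-fold higher in DN3a (2.68%) and 115 lower (2.28%). All 5 DN3a genes were called higher, with a median log2 ratio of 1.90. The study chose these 5 genes on these same libraries, so their direction between libraries is not independent evidence. Of 43 G2/M genes, 33 were called lower and none higher, with a median of −1.70. S phase genes had a median of −0.06, with 2 of 43 called higher and 1 lower.

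Cycling Il2ra ran 417 CPM in DN3a, 94.6 in DN3b γδ−, 26.8 in DN3b γδ+ and 630 in Lat-KO, and Rag1 122, 32.9, 1.88 and 222 CPM in the same order. Hes1 had 236, 73.7, 41.7 and 198 CPM, and Ptcra 186, 60.6, 5.61 and 462 CPM. The order was the same for Il2ra, Rag1 and Ptcra, with Lat-KO above DN3a above DN3b γδ− above DN3b γδ+ in these single libraries. The order was not tested. For Hes1, DN3a was above Lat-KO (log2 ratio 0.26, 0.13 to 0.38). In each of these 4 libraries the 5 genes were lower in cycling than in comparison barcodes, with log2 ratios from −3.67 (Rag1 in DN3b γδ+) to −0.52 (Il2ra in Lat-KO). B cell barcodes followed the same order, with 161 CPM of Il2ra for DN3a, 82.9 for DN3b γδ−, 23.6 for DN3b γδ+ and 229 for Lat-KO. The cycling Il2ra levels of DN3b γδ− and DN3b γδ+ were thus near those of B cell barcodes of the same library, and those of DN3a and Lat-KO above them.

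The genes highest over DN3b γδ− were AY036118 at 660 against 41.3 CPM (log2 ratio 3.999), Gstp1, a glutathione transferase, at 116 against 8.22 CPM (3.81), Khdc1a at 55.7 against 6.09 CPM (3.19), the actin-severing Scin at 58.3 against 7.04 CPM (3.05) and Gm42418 at 4106 against 501 CPM (3.03). AY036118 and Gm42418 overlap the ribosomal RNA locus and were higher still in DN3a comparison barcodes, at 1284 and 7262 CPM. The lowest were Ccnb1 (16.3 against 138 CPM, −3.08), Plk1 (9.32 against 76.3 CPM, −3.03), Cdc25b (4.66 against 36.9 CPM, −2.99), Ube2c (66.6 against 471 CPM, −2.82) and cyclin B2, Ccnb2 (18.6 against 130 CPM, −2.80), all of G2/M. The median of the G2/M list was −1.55 among barcodes of 5000 to 15000 UMIs and −1.70 over all cycling barcodes. The first value lay within the median of the single-gene limits around the second. The median moved with the range of rule gene UMIs. It was −2.49 among barcodes with 4 to 7 UMIs of the rule genes in both libraries and −0.68 among those with at least 16. Birc5, for instance, had 5.86 CPM in DN3a barcodes with 4 to 7 UMIs and 198 CPM in such barcodes of DN3b γδ−, against 270 and 407 CPM with at least 16.

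Over cycling DN3b γδ+ barcodes, 150 of 5069 genes were at least 2-fold higher in DN3a (2.96%) and 202 lower (3.99%). Rag1 (log2 ratio 6.02), Ptcra (5.05), Notch3 (5.01) and Il2ra (3.96) were among the 5 highest. Lowest were Nrgn, a calmodulin-binding protein, at 4.92 against 383 CPM (−6.28), Igfbp4 at 2.85 against 90.7 CPM (−4.99) and the mast cell protease gene Cpa3 at 4.66 against 86.8 CPM (−4.22). Of the 14 named genes of the γδ TCR-induced signature, 13 were called lower, and of 18 selection genes 9 were called lower and 3 higher. The study drew that signature from genes higher in DN3b γδ+ than in DN3b γδ− cells, so the 13 are not independent evidence. Cd5 had 13.99 CPM in cycling DN3a against 127 CPM in DN3b γδ+ and 11.05 CPM in DN3b γδ−, and Pdcd1 23.3 against 151.1 and 16.7 CPM. The log2 ratio of Cd5 was 0.34 over DN3b γδ−, with an interval of −0.08 to 0.73 that holds 0, and −3.19 over DN3b γδ+ (−3.60 to −2.80). G2/M genes were called lower in 30 of 40 cases, with a median of −1.69, of −0.999 among barcodes of 5000 to 15000 UMIs and of −0.53 among those with at least 16 UMIs of the rule genes in both libraries.

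Over cycling Lat-KO DN3 γδ− barcodes, whose pre-TCR and TCR cannot signal through LAT, 54 of 5437 genes were at least 2-fold higher in DN3a (0.993%) and 294 lower (5.41%), around a median log2 ratio over all genes of −0.16. Selection genes were called higher in 4 of 14 cases and lower in none. Their median was 0.20, with Tcf3 the lowest (−0.53). Id3 had 80.5 against 27.2 CPM (1.56, 1.29 to 1.84), Cd28 64.2 against 25 CPM (1.36, 1.07 to 1.66) and, under the minimum, Cd5 13.99 against 2.08 CPM (2.75, 1.85 to 3.75). Pdcd1, of the γδ TCR-induced list and under the minimum, had 23.3 against 6.41 CPM (1.86, 1.31 to 2.44). Of that list, 4 genes reached the minimum and none was called (median 0.27). Sesn3 (−0.36) and Cpa3 (−0.46) of the same list had intervals that hold 0. Lef1 had 266 against 111 CPM (1.26, 1.12 to 1.40), the gap being widest at 4 to 7 UMIs of the rule genes, with 313 against 114 CPM. With at least 16 UMIs it was 118 against 102 CPM. The DN3a genes had a median of −0.86, with Ptcra called lower (−1.31), and G2/M genes were called lower in 36 of 44 cases (median −1.65, and −0.93 among barcodes of 5000 to 15000 UMIs). Among the genes of the extremes were the interferon-inducible Ifitm3, at 4.14 against 45.5 CPM (−3.46), and Ly6a (Sca-1), at 12.9 against 124 CPM (−3.26), both lower in DN3a. Trdc, higher at 350 against 24.2 CPM, is altered by the reporter allele of the Lat-KO mice, and the edited gene was counted as a feature of its own, so that its ratio cannot be read as a level of transcription.

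**Figure D4:**
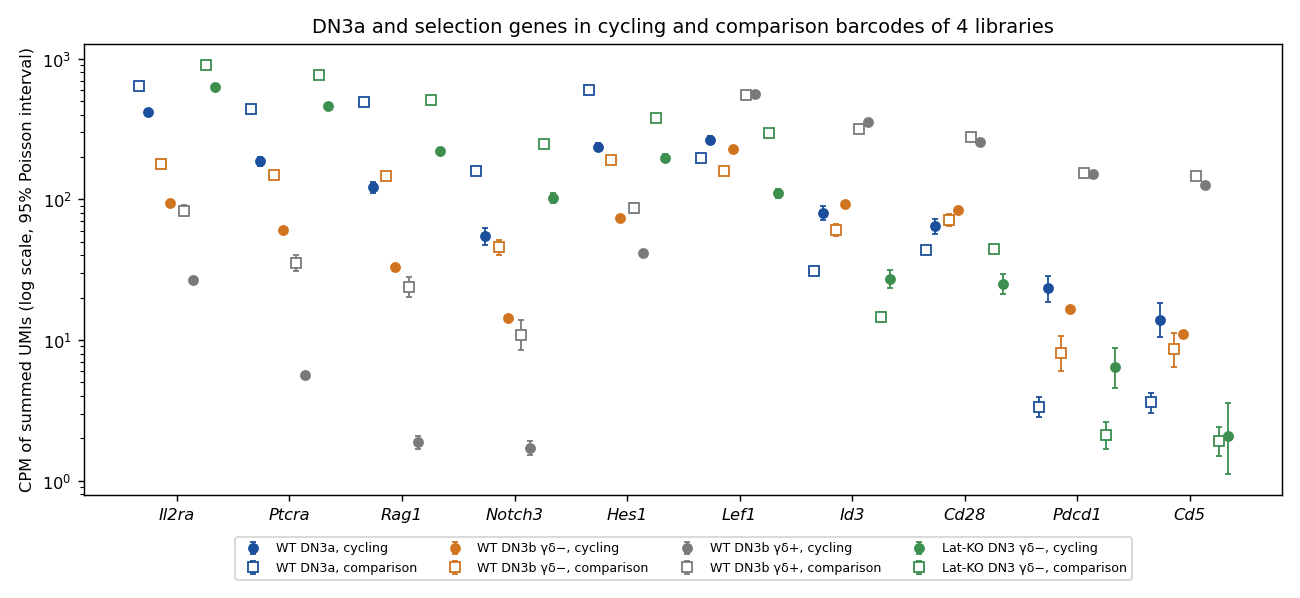
Levels in CPM of summed UMIs (log axis, bars are exact 95% Poisson intervals) of DN3a and selection genes in cycling (filled circles) and comparison (open squares) barcodes of 4 libraries. Cycling Il2ra was 417 CPM in WT DN3a, between 630 CPM in Lat-KO DN3 γδ− and 94.6 CPM in WT DN3b γδ−, while Cd5 was 13.99 CPM in WT DN3a and 2.08 CPM in Lat-KO.

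The same comparison within DN3b γδ−, DN3b γδ+ and Lat-KO DN3 γδ− gave fewer called genes, and called genes were not counted in the remaining 3 libraries. In DN3b γδ−, 3.3% of 5068 genes were at least 2-fold higher in cycling barcodes and 2.78% lower, in DN3b γδ+ 3.0 and 1.49% of 5034, and in Lat-KO DN3 γδ− 6.02 and 3.6% of 5866. Over the same genes, with no minimum level, the median log2 ratio of all 43 S phase genes was 2.96 within Lat-KO and 2.72 within DN3a, and that of all 48 G2/M genes 4.46 and 3.29. Of 438 genes called higher in DN3a among the 5108 compared in both, 250 were also called in Lat-KO, which is 57.1% of the DN3a and 88.7% of the 282 Lat-KO genes. Of 325 called lower, 135 were shared, 41.5 and 76.3% of each. Against DN3b γδ−, 86 genes called higher were shared, 18.5% of 466 in DN3a and 85.1% of 101, and 112 called lower, 48.7% of 230 and 80.6% of 139. Against DN3b γδ+, 80 called higher were shared, 17.3% of 462 and 85.1% of 94, and 46 called lower, 24.3% of 189 and 69.7% of 66. Of the genes called higher in DN3a, 42 of 462 had a ratio of opposite sign in DN3b γδ+, 1 of 466 in DN3b γδ− and 0 of 438 in Lat-KO. Over all genes that reached the minimum, 2368 of 5034 lay above a log2 ratio of 0 in DN3b γδ+. The same counts were 2753 of 5068 in DN3b γδ− and 2518 of 5866 in Lat-KO. Ribosome biogenesis genes were called higher in 14 of 23 cases in DN3a, 3 of 23 in Lat-KO and none of 23 in DN3b γδ− or DN3b γδ+. The comparison barcodes of DN3b are a small rest of libraries in which most cells cycle, and they held S phase genes at a summed 3502 CPM, against 1431 CPM in DN3a. A difference between libraries was not tested.

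The lists of other cell types held members at 0 and members with UMIs in both groups. In the 238 members, Csf1r, S100a8, Siglech, Klrb1c, Ncr1, Klrd1, Foxn1, Krt5, Krt8 and all 5 erythroid genes had 0 UMIs. The lists still summed to 2360 CPM for plasmacytoid cells (3188 in comparison barcodes), 317 against 373 for NK cells, 113 against 155 for myeloid cells, 358 against 779 for double-positive thymocytes and 95.05 against 178 for epithelial and stromal cells. Most of these sums came from Ly6d (1902 against 2411 CPM) and Bst2 (392.1 against 571), Nkg7 (150 against 146) and Gzma (166 against 227), Cst3 (104 against 129), Arpp21 (354 against 776) and Epcam (95.05 against 176), which both groups held. A UMI of Nkg7 was found in 77.7% of members and 52.8% of comparison barcodes, and after thinning in 40.9% (34.6 to 47.5%) and 38.1% (36.8 to 39.4%), beside 2.04% of B cell barcodes. For Gzma the shares were 67.6 and 53.8%, and 39.7 and 41.6% after thinning. The part of other cells in these levels was not tested. The myeloid Lyz2 had a UMI in 22 members, at 7.25 against 21.2 CPM in comparison barcodes. Summed B cell markers made 97.9 against 160 CPM, a sum that the rule can lower in members, since it allowed at most 1 UMI of Cd79a, Cd79b and Ms4a1 in barcodes of any depth. Without any barcode that held a UMI of Cd79a, Cd79b or Ms4a1, 171 members remained. Of 19 genes of DN1 and DN2 progenitors, 9 had 0 UMIs in members, among them Flt3, Lyl1, Lmo2 and Gata2, and the list summed to 74.8 against 113 CPM, with a median log2 ratio of −0.69 over the 10 genes with a ratio. Id2, which reached the minimum and was called lower, had 20.7 against 50.1 CPM (−1.28), Bcl11a, which reached it too, 24.6 against 18.0 CPM (0.45), and Kit 14.8 against 13.1 CPM. Among the 7.50% of barcodes with the highest doublet scores were 17 members (7.14%) and 6.91% of comparison barcodes. As a group, the members held the markers of DN3 thymocytes, with Il2ra, Ptcra and CD3 genes measured, and replication genes. High mitotic genes were seen in part of them. Single barcodes could lack these markers: 20 members held no Il2ra UMI and 5 held none of the 5 DN3a genes.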

How the data were processed

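Thymocytes were sorted and profiled by droplet single-cell RNA sequencing (3′ v3 chemistry), with 1 library for each of 7 groups. The deposited files give whole UMI counts for each gene in each barcode, which the authors made with Cell Ranger (version 5.0.1 in the submitters' notes, an earlier one in the file headers) on mm10 with an edited Trdc reporter feature added. The counts were neither scaled nor corrected, and barcodes were those called as cells. Totals ran from 49407750 to 375688164 UMIs per library.

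UMIs were summed over barcodes of a group and divided by the group's total (CPM). Intervals are exact at 95%: Poisson for levels, conditional binomial for ratios and Clopper-Pearson for shares. A count of 0 entered a ratio as 3 counts. A gene was called at a 2-fold difference with a mean of at least 20 CPM, leaving out rule genes, mitochondrial and ribosomal protein genes. With 1 library per group there were no replicates, no test was made, and cells were not treated as replicates. Members, gene lists and alternatives were chosen with earlier results of these data known. Genes were named when they belonged to the rule, to the gene lists, to the 15 highest or lowest ratios with at least 10 UMIs in each group, or to the 5 highest or lowest between cycling barcodes of 2 libraries. B cell barcodes had at least 10 UMIs of Cd79a, Cd79b and Ms4a1. Thinning drew 4000 UMIs per barcode without replacement. The doublet caller in scanpy 1.11.5 marked 0 of 7876 barcodes at its own threshold and so had not worked, and only its highest scores were used. Promoters came from RefSeq tables of GRCm38.p6. The work was done in Python 3.11.15 with scipy 1.17.1, and TMM factors came from edgeR 4.0.16 in R 4.3.3. The ratio code was run on simulated Poisson sums, the same model as the intervals. These sums had no spread between cells, so the run checked the code and not the intervals for real cells.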

Additional observations from a re-analysis of the deposited data

Results flagged for a closer look

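Cdkn2d, an inhibitor of CDK4 and CDK6, drew attention because its difference between cycling and comparison barcodes had opposite signs in 2 stages. It was lower in cycling barcodes of DN3a (31.3 against 57.3 CPM, log2 ratio −0.87) and higher in those of DN3b γδ− (52.6 against 27.5 CPM, 0.94) and DN3b γδ+ (80.2 against 54.6 CPM, 0.56). The linker histone gene Hist1h1d behaved in the same way, with a log2 ratio of −0.54 in DN3a, 0.67 in DN3b γδ− and 0.70 in DN3b γδ+. Cd28 was higher in cycling DN3a barcodes (0.55) and lower in those of Lat-KO DN3 γδ− (25 against 44.6 CPM, −0.83). With 1 library in each group, none of these differences between libraries was tested.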

How the results depend on the processing

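No paired analysis was possible because each group is 1 library and no test was made, and no replicate could be left out for the same reason. The share of cycling barcodes was 1.21% after thinning to 4000 UMIs and 1.79% with at least 8 UMIs of the rule genes (3.80% as reported). Without a minimum level, 1258 of 12600 genes were at least 2-fold higher and 1776 lower, and under the other alternatives 378 to 625 were higher and 252 to 464 lower. TMM factors shifted every log2 ratio by 0.06 and gave 525 higher and 277 lower. The median log2 ratio of the 5 DN3a genes was −1.23 after thinning, −1.43 with at least 8 UMIs, −1.498 without barcodes that held a B cell UMI and −1.504 without the 60 members with at least 16 UMIs. The γδ TCR-induced list had a median of 0.30 without a minimum level, since more of its genes then enter. Without the 60 members, Hist1h1b (−0.45) and Hist1h2ae (−1.15) changed direction. The following alternatives were chosen after the data had been seen. The median of G2/M genes between cycling barcodes was −2.49 (4 to 7 UMIs of the rule genes in both) and −0.68 (at least 16) over DN3b γδ−, −0.999 (5000 to 15000 UMIs) and −0.53 (at least 16) over DN3b γδ+, and −0.93, −1.24 and −0.92 (5000 to 15000 UMIs, 4 to 7 and at least 16) over Lat-KO. Leaving out the 60 members and leaving out members with a shared barcode were added in the same way. Unthinned shares were 91.6% for Il2ra, 47.9% for Rag1 and 13.4% for Cd5. The cause of these movements was not tested. Among the ratios of single genes and the other list medians over all alternatives, 2597 values stayed within their counting error, 616 moved beyond it and 2, the histone genes above, were called and changed sign. For list medians, the limits used were the medians of the single-gene limits and not an error of the median itself. With 238 members, genes under about 20 CPM rest on few UMIs.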
